A study of Neurospora crassa with 18 samples.

Results

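The *cpc-1Δ*, *cpc-1*(WT) strain of *Neurospora crassa*, a filamentous fungus, was compared with the WT strain during histidine starvation by mRNA-seq. The comparison used 6 of the 18 libraries of the series, 3 for each strain, chosen by strain and culture as the labels give them. Another 3 libraries, of the *cpc-1Δ* strain in the same medium, were set beside them because the transgene strain was made from it. The WT strain was FGSC4200, which is of mating type *a*. *cpc-1Δ* is the strain of the *Neurospora* knockout library in which *cpc-1* is deleted, and the paper does not give its mating type. In *cpc-1Δ*, *cpc-1*(WT), a tagged copy of the *cpc-1* open reading frame, with 3×Flag and 8×Gly at its N terminus, was placed at the *csr-1* locus under the promoter and 5′ untranslated region of *ccg-1*, so that this strain carries both the deletion of *cpc-1* and a disrupted *csr-1*. It was made homokaryotic through microconidia, and whether its 3 libraries came from the same transformant is not stated. All cultures were mycelia in Vogel's medium with 2% glucose, grown in constant light at room temperature and given 5 mM 3-aminotriazole (3-AT) for 8 h. The question was which functions still differed from WT when *cpc-1* was supplied by the construct. The transgene strain was not sampled without 3-AT.

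CPC-1 is the *Neurospora* counterpart of the yeast transcription factor GCN4. When a cell runs short of any amino acid, uncharged tRNA activates the kinase GCN2, named CPC-3 in *Neurospora*, and translation of the *cpc-1* mRNA is increased through short open reading frames upstream of its coding sequence. CPC-1 then activates genes for the synthesis of many amino acids at once, which is called cross-pathway control. 3-AT inhibits an enzyme of histidine synthesis and thereby starves the cells of histidine. The construct lacks the 5′ leader of *cpc-1*, so that the upstream open reading frames are not part of it.

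mRNA levels were deposited as RPKM, which is a read number set against transcript length and the size of the library, and a gene's value is the sum over its transcripts. The 3 strains differed in overall level. The RPKM values added up to between 257730 and 271037 in WT, 307715 and 326679 in *cpc-1Δ* and 406875 and 422269 in *cpc-1Δ*, *cpc-1*(WT). The values were therefore compared as deposited and after scaling each library by the median ratio over 4075 reference genes, with factors of 0.722 to 0.772 for WT, 1.042 to 1.102 for *cpc-1Δ* and 1.263 to 1.286 for the transgene strain. The files hold no read counts, so that library depth is unknown. The smallest steps between values gave relative depths of 1.0 to 1.41, which are similar in the 3 strains. A log2 fold change is given on log2(scaled RPKM + 1) with its standard error (SE) from limma, unless stated otherwise, and it understates the change of genes of low level. A gene was called higher or lower only when its Benjamini-Hochberg adjusted *P* from limma was under 0.05 both as scaled and as deposited, in the same direction. This rule treats the directions unequally, because scaling lowered the fold changes against WT of genes at 10 RPKM or more (4271 genes) from a median of 0.73 to -0.01, so that a decrease had to be larger than an increase to pass both fits. The labels do not say that the replicates were separate cultures, and *P* values measure only the spread between these libraries. The values of the transgene strain were tabulated apart from the others, and a difference between the tables and one between the strains cannot be told apart.

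Of 8688 genes tested, 1923 (22.1%) were called higher and 722 (8.31%) lower in the transgene strain than in WT. The scaled values alone gave 2445 genes lower beside the same 1923 higher, so that 44.0% of the genes that passed were higher, against 86.5% as deposited. The genes called higher differed by less than those called lower, but the rule for calls favors this, as small decreases did not pass the deposited fit. Of the former, 518 (26.9%) differed by 2-fold or more and the median difference was 0.62 on the log2 scale, whereas 609 (84.3%) of the latter did and the median was 1.37. The scaled values of WT and the transgene strain did not overlap for 1897 of the genes called higher and for all 722 called lower. These genes had already passed both fits, so that the lack of overlap adds no support to the calls. In the same fit, 2217 genes (25.5%) were called higher and 1332 (15.3%) lower in *cpc-1Δ* than in WT, and 1289 (14.8%) were called higher and 386 (4.44%) lower in the transgene strain than in *cpc-1Δ*. These comparisons share libraries, so their values are set side by side without a test between them.

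**Figure D1:**
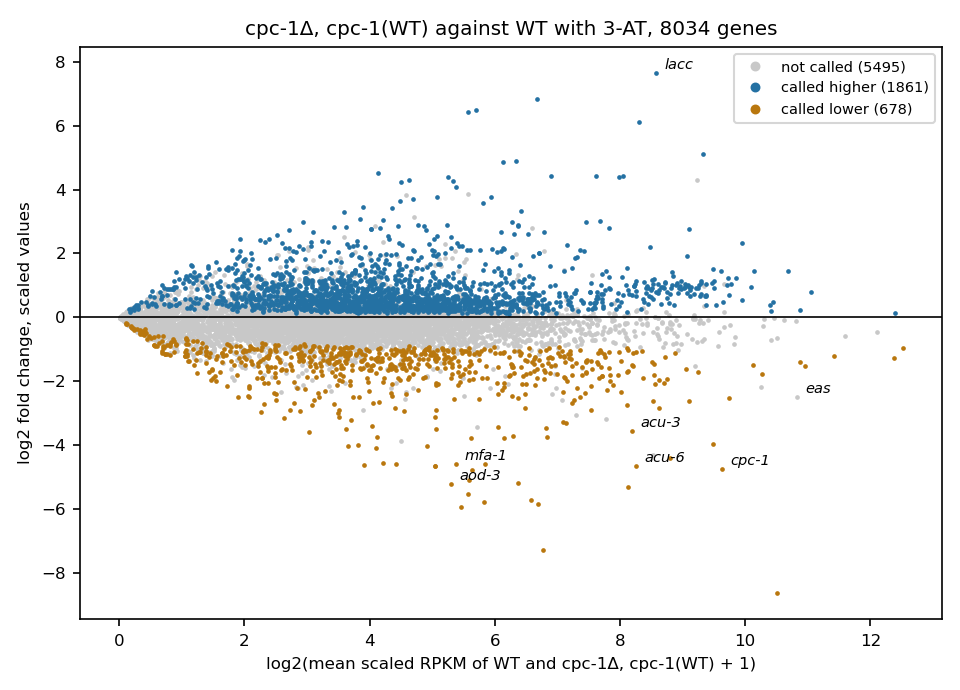
Scaled log2 fold change of *cpc-1Δ*, *cpc-1*(WT) against WT (vertical axis) by mean level in these strains on a log2 scale (horizontal axis) for 8034 genes, with 654 genes left out because every library of 1 of these strains lists them at 0. Each point is 1 gene, blue where called higher (1861 of those plotted) and brown where called lower (678). The points called lower lie farther from 0 than most of those called higher, and the rule for calls required larger decreases than increases.

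*cpc-1* was far below its WT level in the strain that carries the construct. It was at 1092, 1163 and 1167 RPKM in the WT libraries, 2.13, 2.43 and 2.03 in *cpc-1Δ* and 67.2, 78.9 and 68.8 in *cpc-1Δ*, *cpc-1*(WT). The values fit the strain labels, as the deletion strain was near 0, the transgene strain was above it and the 3 ranges did not overlap. The scaled log2 fold change against WT was -4.75 (SE 0.07, limma adjusted *P* = 2.4e-09), or -3.98 as deposited. The transgene strain thus had 3.67% of the WT level as scaled and 6.28% as deposited, and 27.3 times the level of *cpc-1Δ* as scaled. An exact two-sided permutation test over the 6 libraries gave *P* = 0.1, the smallest value that 3 against 3 libraries allow. RPKM is per length of the annotated transcripts, and the construct does not carry the native 5′ leader. The level of the construct's mRNA over its own length was therefore not measured here. From reads of the *cpc-1* coding sequence alone, the paper also reported a much lower level in this strain than in WT.

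The genes the construct touches were also different. *csr-1*, the gene replaced by the construct, was at 1231, 1292 and 1304 RPKM in WT and 1154, 1226 and 1169 in *cpc-1Δ*, and it is listed at 0 in all 3 libraries of the transgene strain. Of its neighbors, NCU00727, which overlaps *csr-1* in the reference annotation, is listed at 0 in WT and *cpc-1Δ* and was at 15.5, 17.3 and 17.9 RPKM in the transgene strain, whereas NCU00725 was not called (-0.09, SE 0.07). Reads of overlapping genes, or of the construct beside them, cannot be told apart in these values. *ccg-1*, the glucose-repressible gene whose promoter and 5′ untranslated region drive the construct, was at 275, 303 and 306 RPKM in WT, 756, 813 and 833 in *cpc-1Δ* and 1154, 1109 and 1039 in the transgene strain. It was higher than in WT by 1.13 (SE 0.07), and the deletion strain, which has no construct, differed from WT by 0.93. Reads from the construct's copy of the *ccg-1* 5′ untranslated region and from *ccg-1* itself cannot be told apart here. The mRNA of β-tubulin (*Bml*), used in the study as a reference, differed by 0.16 as scaled (SE 0.04) and by 0.94 as deposited.

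**Figure D2:**
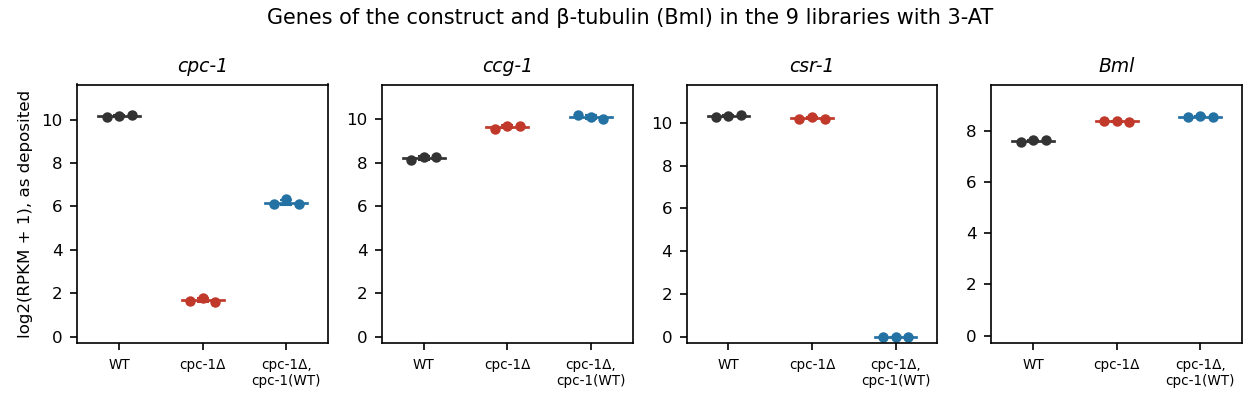
Deposited level of *cpc-1*, *ccg-1*, *csr-1* and *Bml* as log2(RPKM + 1) in the 9 libraries with 3-AT, by strain. Points are libraries, and the line and bar are the mean and SD of 3 libraries. *cpc-1* lies between the deletion strain and WT in the transgene strain, and *csr-1* is at 0 there.

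The other genes of cross-pathway control differed from WT in opposite directions. *cpc-3*, the GCN2 homolog that senses uncharged tRNA, was at 32.8, 33.5 and 33.7 RPKM in WT and 12.8, 16.1 and 14.2 in the transgene strain, a log2 fold change of -1.90 (SE 0.07). *cpc-2*, which codes for a RACK1-type protein of the ribosome, was at 170.2, 185 and 187 RPKM in WT and 634, 623 and 642 in the transgene strain, higher by 1.03 (SE 0.04). The deletion strain differed from WT by -2.58 for *cpc-3* and 1.22 for *cpc-2*. The transgene strain was called higher than *cpc-1Δ* for *cpc-3* and was not called for *cpc-2*.

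Many amino acid synthesis genes were lower in the transgene strain than in WT, and many were higher than in *cpc-1Δ*. The 70 genes of amino acid synthesis are those of the pathways described next, sulfur and methionine metabolism, serine, proline, asparagine, glutamate and glutamine synthesis and the study's own list, with 8 genes added under other names after the files had been opened. Of these, 29 (41.4%) were called lower than in WT, 3 were called higher and 38 were not called, beside 8.31% lower and 22.1% higher over all genes tested. Their median scaled log2 fold change was -0.87, beside -0.05 over all genes tested. In *cpc-1Δ*, 49 (70.0%) were called lower than in WT, beside 15.3% over all genes tested, with a median of -1.40. Against *cpc-1Δ*, 38 (54.3%) were called higher in the transgene strain and 5 lower, beside 14.8% and 4.44% over all genes. The median level was 52.7% of WT in the transgene strain and 34.3% in *cpc-1Δ* as scaled. As deposited, the median of the transgene strain was 90.04% of WT, and how far these genes were below WT therefore depends on the scale.

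Histidine synthesis, the pathway that 3-AT blocks, had 2 of 4 genes called lower and none higher, beside 8.31% and 22.1% over all genes. The median was -1.09. The list held 7 entries, of which these 4 genes were matched by symbol. *his-3*, which codes for a trifunctional enzyme of the pathway, was at 178, 194 and 197 RPKM in WT, 45.8, 47.7 and 44.5 in *cpc-1Δ* and 122, 128 and 122 in the transgene strain, and the 3 ranges did not overlap. Its log2 fold change against WT was -1.38 (SE 0.04), against -2.53 in *cpc-1Δ*. *his-6* was lower by more, with 275 ± 15.9 RPKM in WT and 95.9 ± 2.01 in the transgene strain (SD, *n* = 3, log2 fold change -2.28, SE 0.05). *his-2* and *his-7* were not called, with values of -0.80 and -0.52. *his-7* varied from 25.8 to 50.2 RPKM among the WT libraries, which overlap those of the transgene strain.

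Arginine synthesis had 6 of 10 genes called lower and none higher, beside 8.31% and 22.1% over all genes. The median was -1.46 as scaled and -0.69 as deposited. In *cpc-1Δ*, 9 of the 10 were called lower than in WT, beside 15.3% over all genes. Against *cpc-1Δ*, 9 were called higher in the transgene strain, beside 14.8% over all genes. *arg-12*, which codes for ornithine carbamoyltransferase, was at 281, 284 and 299.7 RPKM in WT, 25.6, 33.04 and 26.6 in *cpc-1Δ* and 108, 108 and 121 in the transgene strain. This gene was at 22.9% of WT as scaled (-2.12, SE 0.08), above the 6.89% of *cpc-1Δ*. *arg-10*, which codes for argininosuccinate lyase, was at 478, 520.4 and 522 RPKM in WT, 33.9, 39.9 and 35.9 in *cpc-1Δ* and 218, 252 and 212 in the transgene strain (-1.93, SE 0.08). *arg-1*, which codes for argininosuccinate synthase, differed by -1.41 (SE 0.06), and *arg-5*, for acetylornithine aminotransferase, by -2.41 (SE 0.06). *arg-2* and *arg-3*, which code for the small and large subunits of the arginine-specific carbamoyl-phosphate synthetase, differed by -1.51 and -2.35. Their levels against *cpc-1Δ* were higher by 0.45 and 0.27, and *cpc-1Δ* differed from WT by -1.96 and -2.61.

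*arg-4*, singled out after its values were seen, was not among the arginine genes called lower. It was at 281, 296 and 294 RPKM in WT, 109, 114 and 106 in *cpc-1Δ* and 491, 496 and 497 in the transgene strain. As scaled, it was at 99.6% of WT in the transgene strain (-0.01, SE 0.04, limma adjusted *P* = 0.92) and at 26.4% in *cpc-1Δ*. As deposited, it was above WT by 0.77.

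Aromatic amino acid synthesis had 4 of 10 genes called lower and none higher, beside 8.31% and 22.1% over all genes. The median was -1.12. *aro-8*, which codes for an isozyme of 3-deoxy-D-arabino-heptulosonate 7-phosphate synthase, the first enzyme of the shikimate pathway, was at 166, 158 and 174 RPKM in WT and 99.3, 89.5 and 107 in the transgene strain (-1.52, SE 0.08). *aro-7*, which codes for another isozyme, was at 220.2, 228 and 239.6 RPKM in WT and 217, 230 and 224 in the transgene strain. Its ranges overlap as deposited and not as scaled (-0.81, SE 0.05), so that it was not called, whereas *cpc-1Δ* was called lower than WT with -2.71. *trp-1* and *trp-2*, which act in tryptophan synthesis, were lower than in WT, with -1.37 (SE 0.05) and -1.50 (SE 0.07). *trp-4* was at 39.8, 46.2 and 43.9 RPKM in WT and is listed at 0 in all libraries of both other strains. For *trp-3*, tryptophan synthase, 1 WT library lists 0 and the others are at 257 and 291 RPKM, with 163, 163 and 163 in the transgene strain. Without that library, the difference was -1.51 and was called, in the opposite direction to the value of 1.33 (SE 2.09) over all libraries, which was not called.

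Threonine and branched-chain amino acid synthesis had 4 of 7 genes called lower and 1 higher, beside 8.31% and 22.1% over all genes. The median was -1.41. *thr-4*, which codes for threonine synthase, was at 54.3 ± 2.02 RPKM in WT and 27.5 ± 0.900 in the transgene strain (SD, *n* = 3, log2 fold change -1.71, SE 0.05). *hom-1*, for homoserine dehydrogenase, differed by -1.41 (SE 0.06) and *leu-4*, for isopropylmalate synthase, by -1.90 (SE 0.05). *thr-5* was the exception, with 34.4, 34.6 and 36.8 RPKM in WT, 32.4, 31.3 and 32.8 in *cpc-1Δ* and 79.6, 90.2 and 84.3 in the transgene strain, higher than in WT by 0.48 (SE 0.06). *leu-1*, for isopropylmalate dehydrogenase, was at 89.3% of WT as scaled and was not called, whereas *cpc-1Δ* was at 47.9%. *ilv-2*, which codes for ketol-acid reductoisomerase and is not among the 7 but among the 8 genes added later, was called lower (-1.46, SE 0.06). Of 4 lysine genes, *lys-3* (-1.12) and *lys-5* (-1.63) were called lower, and *lys-7* varied from 0 to 52.8 RPKM among the WT libraries. *lys-6* was not called against WT and went the other way in the deletion strain. It was called higher in *cpc-1Δ* than in WT and lower in the transgene strain than in *cpc-1Δ*.

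The study also measured a list of amino acid synthesis genes by PCR as CPC-1 targets. Of the 14 genes on this list, 10 were matched by symbol, and *his-4*, *his-5*, *aki-1* and *ser-2* were not. In the transgene strain, 6 of the 10 were called lower than in WT and 1 higher, beside 8.31% and 22.1% over all genes. The median was -1.40. *his-3*, *hom-1*, *thr-4*, *aro-8*, *arg-12* and *arg-10* were the 6 lower ones, *thr-5* was higher, and *trp-3*, *aro-7* and *ppm-3* were not called. Against *cpc-1Δ*, 9 of the 10 were called higher, with a median of 1.20, the exception being *trp-3*. The fit of 9 libraries shares its spread among the strains, so that for *trp-3* it includes the outlying WT library described above. The missing call therefore does not show that *trp-3* was unchanged against *cpc-1Δ*. By PCR, the paper reported higher levels in the transgene strain than in *cpc-1Δ* for its whole list, *trp-3* included. The study chose this list as CPC-1 targets, so that the direction against *cpc-1Δ* is not independent evidence.

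Sulfur and methionine metabolism had 6 of 17 genes called lower and 2 higher, beside 8.31% and 22.1% over all genes tested. The median was -0.51 as scaled and 0.25 as deposited. *met-5*, which codes for homoserine acetyltransferase, was lower by the most (-2.03, SE 0.09), and *cys-9* and *scon-3* were called higher by 0.37 and 0.49. Among 11 genes of serine, proline, asparagine, glutamate and glutamine synthesis, *ser-7* (-1.98, SE 0.08) and *pro-4* (-1.36, SE 0.07) were called lower and none was called higher. In purine and pyrimidine synthesis, 3 of 9 genes were called lower and 2 higher. Beside 8.31% and 22.1% over all genes tested, the number higher is near the background. *gua-3* was at 449, 419.8 and 499 RPKM in WT, 48.1, 54.3 and 47.1 in *cpc-1Δ* and 184, 169 and 198 in the transgene strain (-2.08, SE 0.08). *pyr-4*, which codes for orotidine 5′-phosphate decarboxylase in pyrimidine synthesis, was higher, with 18.8, 18.1 and 17.7 RPKM in WT and 113, 177 and 113 in the transgene strain (2.03, SE 0.17).

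Genes that use arginine and ornithine differed in the other direction from those that make arginine. Of 5 genes of arginine breakdown and polyamine synthesis, 4 were called higher than in WT and none lower, beside 22.1% higher over all genes, and the median was 0.42 as scaled. *aga-1*, arginase, was at 40.8, 44.6 and 46.2 RPKM in WT and 97.7, 103 and 102 in the transgene strain (0.42, SE 0.05), but with only its first listed transcript it was not called and the value was -0.99. *ota*, ornithine aminotransferase, differed by 0.31, *spe-1*, ornithine decarboxylase, by 0.49, and *spe-3*, spermidine synthase, by 0.66. The same 4 genes were called higher in *cpc-1Δ* than in WT, and none of the 5 was called between the transgene strain and *cpc-1Δ*. *spe-2*, S-adenosylmethionine decarboxylase, overlapped WT in the scaled values and was not called (0.29, SE 0.29).

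Of 6 genes of nitrogen regulation and nitrate use, 4 were called lower in the transgene strain and none higher, beside 8.31% lower over all genes, with a median of -1.50. *nit-3* codes for nitrate reductase, *nit-6* for nitrite reductase and *nit-10* for a nitrate transporter, and *nit-4* codes for the transcription factor that activates them with nitrate. *nit-6* was at 1183, 1253 and 1259 RPKM in WT, 283, 279.5 and 272 in *cpc-1Δ* and 761, 724 and 752 in the transgene strain (-1.50, SE 0.04). *nit-10* was at 482, 515 and 501 RPKM in WT, 78.01, 106 and 79.1 in *cpc-1Δ* and 223, 195 and 202 in the transgene strain (-2.04, SE 0.11). *nit-3* was at 33.6% of WT in the transgene strain and 13.9% in *cpc-1Δ*. The libraries of the 3 strains did not overlap for any of these 3 genes. *nit-4*, at a low level of 4.66 ± 0.286 RPKM in WT (SD, *n* = 3), differed by -0.88 (SE 0.07) and was not called against *cpc-1Δ*.

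In acetate use and gluconeogenesis, 4 of 7 genes were called lower and none higher, beside 8.31% lower over all genes, with a median of -1.92 as scaled and -1.17 as deposited. *acu-3*, isocitrate lyase, and *acu-9*, malate synthase, make up the glyoxylate bypass, and *acu-6* codes for phosphoenolpyruvate carboxykinase. *acu-3* was at 387, 397 and 416 RPKM in WT, 14.9, 17.8 and 14.7 in *cpc-1Δ* and 57.8, 55.8 and 58.1 in the transgene strain (-3.55, SE 0.06). *acu-6* was at 415, 439 and 462 RPKM in WT, 2.82, 2.09 and 2.33 in *cpc-1Δ* and 27.8, 28.02 and 29.1 in the transgene strain (-4.67, SE 0.08), which is 3.78% of WT as scaled. *acu-9* was at 186, 193 and 202 RPKM in WT, 10.8, 10.5 and 9.01 in *cpc-1Δ* and 73.1, 66.8 and 73.03 in the transgene strain (-2.20, SE 0.07). *acu-15*, which codes for a transcription factor of acetate use, was at 25.4% of WT as scaled. All 4 were called higher in the transgene strain than in *cpc-1Δ*. Of 8 glycolysis genes, none was called in either direction, with a median of -0.17 as scaled and 0.60 as deposited. This depends on the rule for calls, as all 8 were higher as deposited alone and 4 were lower as scaled alone.

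**Figure D3:**
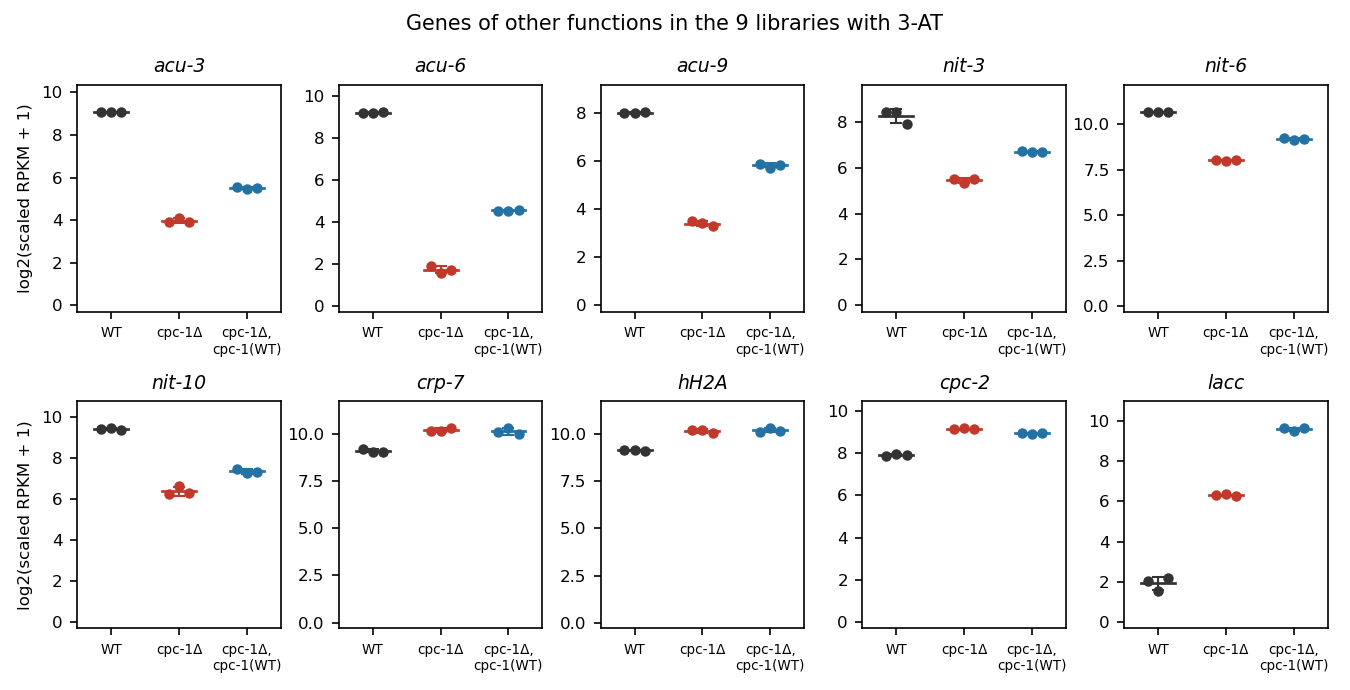
Scaled level of 10 genes as log2(scaled RPKM + 1) in the 9 libraries with 3-AT, by strain, with points for libraries and the line and bar for the mean and SD of 3. For the *acu* and *nit* genes the transgene strain lies between *cpc-1Δ* and WT. For *crp-7*, *hH2A* and *cpc-2* it lies beside *cpc-1Δ*, and for *lacc* it is above both other strains.

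Ribosomal protein and histone genes were above WT in both strains that lack the native *cpc-1*. All 8 ribosomal protein genes with a *crp* symbol were called higher in the transgene strain, beside 22.1% over all genes, with a median of 0.87 as scaled and 1.64 as deposited. *crp-7* was at 425, 397 and 408 RPKM in WT, 1192, 1237 and 1307 in *cpc-1Δ* and 1384, 1614 and 1281 in the transgene strain (1.02, SE 0.10). *cyh-2*, another ribosomal protein gene, was also called higher (0.71, SE 0.17). Of 9 histone genes, 8 were called higher and none lower, with a median of 0.74. *hH2A* was at 413, 431 and 427 RPKM in WT, 1264, 1327 and 1106 in *cpc-1Δ* and 1399, 1635 and 1475 in the transgene strain (1.05, SE 0.07), and *hH3* differed by 0.95 (SE 0.06). None of the 8 *crp* genes or 9 histone genes was called between the transgene strain and *cpc-1Δ*.

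Other complexes had medians nearer to that of all genes. For the proteasome, 16 of 30 subunit genes were called higher and none lower, but the median was only 0.18. *rpn-10*, which codes for a ubiquitin receptor of the 19S particle, was at 46.8 ± 4.20 RPKM in WT and 158 ± 22.2 in the transgene strain (SD, *n* = 3, log2 fold change 0.96, SE 0.10). *pca-6* is listed at 0 in all 3 WT libraries and was at 109, 106 and 111 RPKM in the transgene strain and 94.6, 99.5 and 92.4 in *cpc-1Δ*. Of 9 heat shock protein genes 4 were called higher, with *hsp70-1* (0.40) and *hsp80* (0.30) among them. Of the vacuolar ATPase genes 5 of 14 were called higher, of those for mitochondrial protein import 4 of 21, of the peroxins 3 of 19 and of respiratory complex I 3 of 29, beside 22.1% over all genes. The count for complex I was 5 without replicate 2 of the transgene strain and 27 as deposited. None of these lists had a gene called lower, and the medians of all 5 lay between -0.19 and 0.17 as scaled and between 0.53 and 0.92 as deposited.

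**Figure D4:**
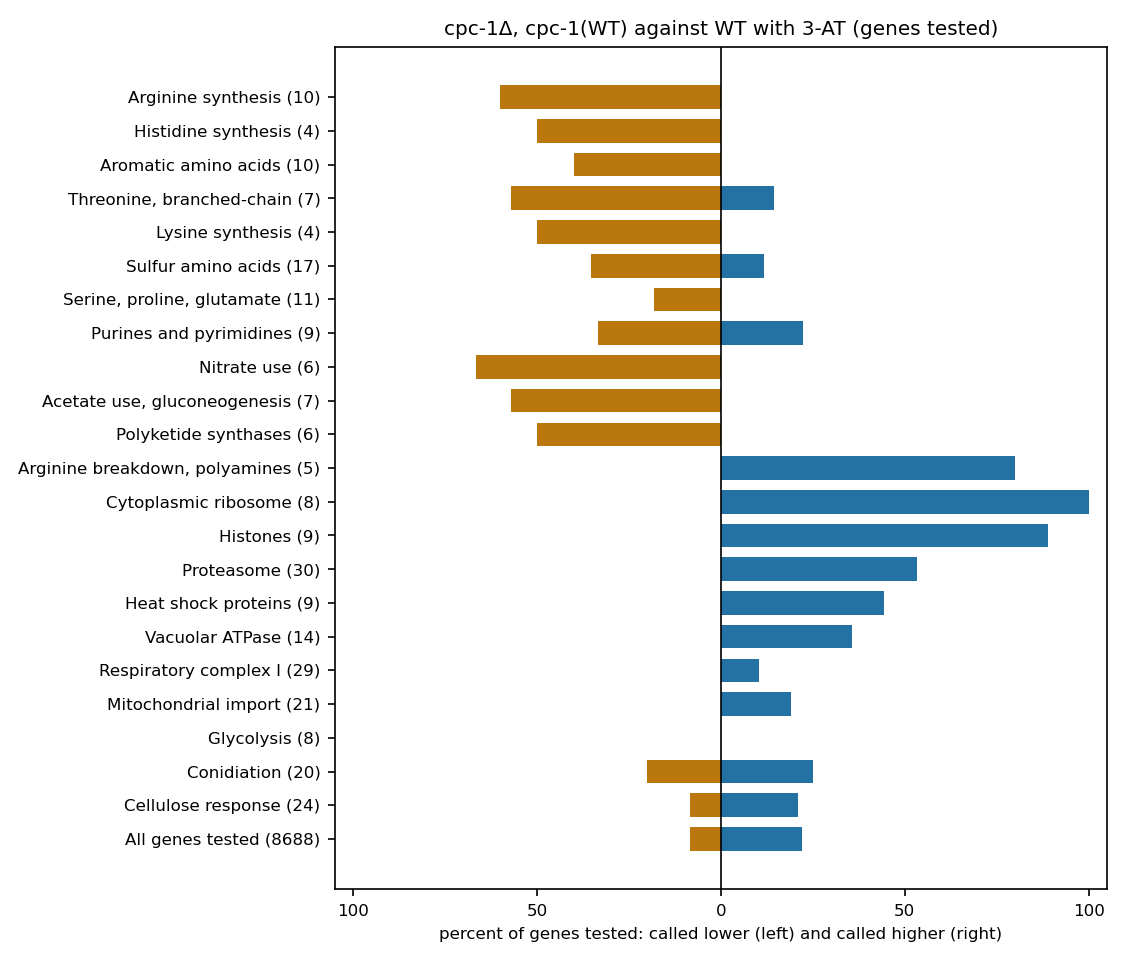
Percent of the genes tested in each group that were called lower (brown, to the left) or higher (blue, to the right) in the transgene strain, relative to WT, with the number tested in parentheses and all genes in the last row. The groups at the top, amino acid, nitrate and acetate genes, extend to the left, and ribosomal protein and histone genes extend to the right.

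Light and development genes differed in part. The carotenoid genes *al-1*, phytoene desaturase, *al-2*, phytoene synthase and cyclase, and *al-3*, geranylgeranyl diphosphate synthase, were called lower, with -1.76 (SE 0.05), -1.06 (SE 0.04) and -1.66 (SE 0.23). No other gene among 17 clock, light and carotenoid genes was called lower, and *frh*, an RNA helicase of the clock, was called higher (0.47). *al-1* was at 50.02, 50.7 and 53.1 RPKM in WT, 20.4, 22.4 and 21.01 in *cpc-1Δ* and 24.2, 24.4 and 26.3 in the transgene strain and was not called between the transgene strain and *cpc-1Δ*. Among 20 conidiation and clock-controlled genes, 5 were called higher and 4 lower, beside 22.1% and 8.31% over all genes, so that the number higher is near the background. *ccg-16* was at 254, 240.1 and 243 RPKM in WT and 2123, 2205 and 2005 in the transgene strain (2.32, SE 0.07), and *ccg-13* was higher by 2.67 (SE 0.18). *mfa-1*, which codes for a pheromone precursor, was at 55.4, 58.4 and 63.2 RPKM in WT and 1.66, 4.25 and 3.38 in the transgene strain (-4.59, SE 0.20).

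Genes that mark conidia were used to check the mycelial label. *con-13* was below 1 RPKM in all 9 libraries and *con-6* is listed at 0 in all of them. *con-10* was at 2.92 to 6.02 RPKM in WT and 8.01 to 9.30 in the transgene strain and was not called. *con-8* was at 18.04, 17.6 and 18.02 RPKM in WT and 70.1, 59.01 and 65.8 in the transgene strain, higher by 1.05 (SE 0.08). *eas*, which codes for the hydrophobin of conidia and aerial hyphae, was at 2271, 2320 and 2301 RPKM in WT, 0, 66.7 and 59.1 in *cpc-1Δ* and 678, 730.1 and 697 in the transgene strain. Its difference from WT (-2.48, SE 1.45) was not called in the fit of 9 libraries, whose spread includes the isolated 0 of 1 *cpc-1Δ* library, and the libraries of WT and the transgene strain did not overlap. In a fit of only the 6 libraries compared it was called lower (-2.48, limma adjusted *P* = 2.8e-06). *fl*, a regulator of conidiation, was not called (-0.73, SE 0.06). The markers thus did not move in 1 direction. In these bulk cultures, fewer cells of a type and less mRNA per cell cannot be told apart, and the part of these markers in the other results was not tested. Only 3 mating type genes were matched in the reference, and these are listed at 0 in all 9 libraries. The mating type of the strains could therefore not be checked from them. Of the pheromone and receptor genes, *mfa-1* and *pre-2* were called lower than in WT in both other strains and were not called between those strains. *ccg-4* and *pre-1* were not called in any comparison. Whether the strains differ in mating type was not tested.

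Among genes of carbon use, 5 of 24 cellulose and hemicellulose genes were called higher and 2 lower, beside 22.1% and 8.31% of all genes. Only 3 were called higher without WT replicate 2, without any 1 of the 3 transgene strain replicates or in a fit of only the 6 libraries compared, and 9 were as deposited. Over 77 glycoside hydrolase genes, 16 were called higher and 7 lower. *gh28-1*, a member of a polygalacturonase family, was at 2.85, 3.30 and 2.36 RPKM in WT and 249.6, 255 and 92.03 in the transgene strain (4.90, SE 0.38), with its libraries of the transgene strain far apart. *gh61-3* was at 1.49, 1.75 and 1.90 RPKM in WT and 52.02, 49.6 and 53.1 in the transgene strain (3.65, SE 0.07). *clr-1*, a transcription factor of cellulose use, was called lower (-1.26, SE 0.08). *gla-1*, glucoamylase, was at 31.3% of WT as scaled, and *hgt-1*, a glucose transporter, at 329.5%. None of 5 genes of the quinic acid cluster was called. Of 6 polyketide synthase genes, 3 were called lower and none higher, led by *pks-3* with 9.01 ± 0.804 RPKM in WT and 0.911 ± 0.142 in the transgene strain (SD, *n* = 3, log2 fold change -2.93, SE 0.13).

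The genes with the largest differences were chosen by rank among the 1707 called genes at a mean of 10 RPKM or more whose strains did not overlap. Of the 10 highest, *lacc*, which codes for laccase, an enzyme secreted into the medium, led with 2.26, 1.45 and 2.71 RPKM in WT, 83.05, 88.03 and 80.3 in *cpc-1Δ* and 987, 923 and 1011 in the transgene strain (7.65, SE 0.15). It was above *cpc-1Δ* by 3.26 as well. NCU05126, with no symbol in the reference, was at 5.88, 5.26 and 6.70 RPKM in WT, 274, 303 and 268 in *cpc-1Δ* and 796, 766 and 831 in the transgene strain (6.13, SE 0.08). NCU06327, NCU06420 and NCU05567 were at or below 1.21 RPKM in WT and between 117 and 276 RPKM in the transgene strain. The other 5 of the 10, *pca-6*, NCU04494, NCU00521, NCU06439 and NCU03607, are listed at 0 in all WT libraries and have no fold.

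Of the 10 lowest, *csr-1* came first, and NCU04482 followed with 2127, 2155 and 2217 RPKM in WT, 0.976, 2.11 and 1.90 in *cpc-1Δ* and 7.74, 8.69 and 7.83 in the transgene strain (-8.63, SE 0.15). This gene was at 0.218% of WT as scaled. NCU03011 was at 64.6, 63.6 and 62.99 RPKM in WT and 0.466, 0.601 and 0.520 in the transgene strain (-5.93, SE 0.06). NCU08226 was at 149, 164 and 171 RPKM in WT, and 2 of the 3 libraries of the transgene strain list it at 0. The others, *pdx-2*, a gene of vitamin B6 synthesis, NCU04344, NCU11258, NCU12100, NCU00149 and NCU03313, are listed at 0 in all libraries of the transgene strain and were at 43.5 to 98.4 RPKM in WT. For *pdx-2* and NCU11258, the *cpc-1Δ* libraries were in part at 0 and in part above it.

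Such zeros were common. In all, 29 genes are listed at 0 in the 3 WT libraries and at 10 RPKM or more in the 3 libraries of the transgene strain, and 27 of these were also at 10 RPKM or more in all 3 of *cpc-1Δ*. Conversely, 16 genes are listed at 0 in the transgene strain and at 10 RPKM or more in WT, of which 10 are at 0 in *cpc-1Δ*. Apart from these patterns, 87 genes are listed at 0 in 1 library of a strain whose median was 10 RPKM or more, which shows that a 0 in these files cannot be read as absence of the mRNA. With only the genes above 0 in all 6 libraries, 1789 were called higher and 626 lower.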

How the data were processed

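RPKM values per annotated transcript were deposited by the authors for each library, with replicates kept apart. The submitters' processing notes name TopHat2 and Cufflinks. The genome build and the total to which RPKM is scaled are not given in the sources used here. The library kit is named as TruSeq in the labels and as NEBNext Ultra in the methods. The methods also name both an Illumina HiSeq and a NovaSeq instrument. Which of them sequenced which libraries is not known. The columns of the transgene strain are headed GCN4WT, whereas their label gives *cpc-1*(WT), and the label was followed.

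From 10792 entries, 7 whose identifier holds a remark were removed, and transcripts were added by gene (9730 genes, 898 with several transcripts). The 124 genes without a number in a library of the transgene strain were dropped, which left 9606. Only genes at 0 in all 9 libraries were kept out of the test. Symbols came from a RefSeq table of assembly NC12, which matched 9605 genes and gave 1108 a symbol. The lists written at the start were matched by symbol only in part, so that their counts do not cover whole pathways. For example, 17 aromatic entries gave 10 genes and 16 threonine and branched-chain entries gave 7. For lysine 8 entries gave 4 genes, for acetate use 17 gave 7 and for glycolysis 24 gave 8. No coordinates are printed, and sequences were not used here.

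Libraries were divided by median-ratio factors from 4075 genes. log2(RPKM + 1) of the 9 libraries with 3-AT was fitted in R 4.3.3 by limma 3.58.1, giving each strain its own coefficient and all a shared spread, first scaled and then as deposited. The procedure was tested on simulated data. SciPy 1.17.1 gave the exact permutation test, and Python 3.11.15 with NumPy 2.4.6, matplotlib 3.10.9 and pandas 2.3.3 the tables and figures.

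The genes named are those of the construct, strain markers, the study's list, the 10 highest and 10 lowest fold changes among called genes at a mean of 10 RPKM or more without overlap, and, in each list, mainly the members with the highest and lowest values among those called. *arg-4*, *leu-1*, *fl*, *hH3*, *hsp70-1* and a few others were chosen after their values were seen. The members and lists were chosen with earlier results of these data known. The lists for ribosome, proteasome, vacuolar ATPase, complex I, import, peroxins, glycoside hydrolases, purines, polyketide synthases and 8 amino acid synthesis genes under other names were formed from the symbols of the reference table after the files had been opened. Lists by product name and a promoter motif had been planned and were not run.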

Additional observations from a re-analysis of the deposited data

How the results depend on the processing

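The scale decided how many genes were called. As deposited, 5454 genes passed in the transgene strain against WT (4718 higher) in place of 2645 (1923 higher and 722 lower), and the scaled values alone, an alternative chosen after seeing the data, gave 4368 (2445 lower). For *cpc-1Δ* against WT, 3951 were higher as deposited and 2459 lower as scaled alone. For the transgene strain against *cpc-1Δ*, 2948 passed as deposited (2556 higher) and 2554 as scaled alone (1265 lower), in place of 1675. Over the lists written at the start, 153 members passed as deposited and 146 as scaled alone, in place of 90. The other alternatives (upper-quartile scaling, factors from 6 libraries, a pseudocount of 0.1, a filter of 1 RPKM, 6 libraries only, a prior variance that follows the mean, the first transcript, a missing number read as 0, and only genes above 0 in all 6 libraries, added after seeing the data) gave 2415 to 2899 genes. Leaving out 1 library gave 2385 to 2581 genes (1711 to 1844 higher and 674 to 737 lower), 86 to 90 list members and a *cpc-1* difference of -4.81 to -4.71. The replicate block gave 2519 genes (1814 higher and 705 lower) for the transgene strain against WT, 3441 for *cpc-1Δ* against WT and 1487 for the transgene strain against *cpc-1Δ*, 89 list members and a *cpc-1* difference of -4.75. The labels do not say that a replicate number marks a shared batch. Across genes, the deviations of same-numbered libraries of WT and the transgene strain had correlations of 0.118, 0.075 and 0.087, against -0.101 to 0.023 for other numbers, so that each library correlated best with its own number, but not every pair was over 0.1 and the numbers were not taken to pair the samples. The block changed the call of none of the 106 genes named apart from *cpc-1*. *cpc-1* stayed between -4.81 and -3.98 in all alternatives run.

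Of 91 named genes that were called, apart from *cpc-1*, 89 kept direction and call in all 17 alternatives run on single genes. The values as deposited and the scaled values alone could not change these calls, because a call already required both. Many of the named genes were chosen for large differences, so that this count does not describe called genes in general. With the first transcript alone *aga-1* reversed (-0.99), and *pho-4* was -1.04 and not called. Of the genes not called, *his-7* (0.24), NCU00725 (0.66), *leu-1* (0.61), *con-13* (0.04) and *arg-4* (0.77) were above WT as deposited. *his-7* (0.67) and *ppm-3* (3.75) were above WT with the first transcript alone. *arg-4* was at 0.08 with upper-quartile scaling, 0.03 with factors from 6 libraries. Leaving out 1 library gave -0.02 to 0.01 for *arg-4*, with 0.01 without WT replicate 2, and -1.51 to 2.77 for *trp-3*, with -1.51 without the same replicate. It gave -0.38 to 0.04 for *con-13*, with 0.03 without WT replicate 2 and 0.04 without replicate 2 or 3 of the transgene strain. Apart from changes made by the construction of an alternative, the cause was not tested. The depth of the libraries is unknown, and 3 libraries per strain limit the precision.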

Other observations

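The following groups were formed from gene symbols after their values had been seen, and they are given as counts without a test. Of 35 DNA repair and replication genes, 21 were called higher and none lower in the transgene strain against WT, beside 22.1% and 8.31% over all genes tested, with a median log2 fold change of 0.33 as scaled and 0.93 as deposited. *rpa-1*, a subunit of the single-stranded DNA binding protein, was at 12.5, 10.99 and 12.3 RPKM in WT, 37.2, 41.7 and 36.1 in *cpc-1Δ* and 42.8, 51.3 and 46.6 in the transgene strain. *mus-51* and *mus-52*, the Ku genes of end joining, differed from WT by 0.78 (SE 0.06) and 0.98 (SE 0.08). Of 34 genes of chromatin assembly and remodelling, 10 were called higher and 1 lower (2 lower without WT replicate 1 or without replicate 1 of the transgene strain), with a median of -0.13 as scaled and 0.56 as deposited.

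Alternative oxidase passes electrons to oxygen without cytochrome oxidase. Of 4 genes with an *aod* symbol, 3 (*aod-1*, *aod-3* and *aod-5*) were called lower in the transgene strain than in WT. The remaining 1, *aod-2*, was called higher. The symbol does not tell genes of the oxidase itself from genes that regulate it. Over all genes tested, 8.31% were called lower and 22.1% higher. *aod-1* was at 97.97, 94.7 and 98.6 RPKM in WT, 6.61, 6.20 and 6.27 in *cpc-1Δ* and 28.96, 29.7 and 27.9 in the transgene strain (-2.47, SE 0.05). *aod-3* was at 56.4 ± 14.5 RPKM in WT and 1.31 ± 0.0612 in the transgene strain (SD, *n* = 3, log2 fold change -5.21, SE 0.19). Of 7 phosphate genes, 2 were called higher and 2 lower, beside 22.1% and 8.31% over all genes tested, and only 1 was called lower without WT replicate 3 or without replicate 2 of the transgene strain. *pho-5*, a phosphate transporter, was higher by 1.85 (SE 0.06), whereas *pho-4*, another one, was called lower (-1.21, SE 0.10). Of 11 anchored cell wall protein genes, 4 were called higher and 4 lower, beside the same 22.1% and 8.31%. *pdx-1*, of vitamin B6 synthesis, was at 1590, 1327 and 1544 RPKM in WT, 0, 0 and 149 in *cpc-1Δ* and 585, 452 and 663 in the transgene strain and was not called in the fit of 9 libraries, but was in a fit of only the 6 libraries compared (-2.18, limma adjusted *P* = 0.00024).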
